A study of Mus musculus with 24 samples.

Results

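The genes described here are 38 genes of DNA replication and S phase, taken by gene symbol from a list of replication factors, from the enzymes that make deoxynucleotides and from the cyclins and regulators of S phase entry. They are 38 of 18193 genes named on the array, and each was read from its brightest probe set on average. All but 1, 37 of 38, passed the filter on low values and were among the 12811 genes tested. The exception, Tyms (thymidylate synthase), was below the array median on every array, with values of 5.48 to 6.56 (log2), and was not tested. The tissue was mouse jaw at embryonic day 14.5 on the C57B6 strain, in pieces whose labels name distal or proximal bone, hybridised to 24 arrays. Mutants came from a cross of Wnt1cre;Tgfbr2fl/+ with Tgfbr2fl/fl mice and were picked out by their cleft palate and their defect of the calvaria, and controls were littermates whose alleles the labels do not list. The Wnt1-driven Cre acts in neural crest cells and their descendants, so that other cells of the jaw, such as epithelium, muscle, endothelium and blood, keep the receptor gene. The 8 groups of 3 arrays were mutant and control distal mandible, proximal mandible, distal maxilla and proximal maxilla. Nothing in the labels ties the 3 replicates to separate embryos or to pools, and p-values therefore reflect the spread among these arrays alone, part of which may be technical.

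A cell copies its DNA once per division. In G1 the origin recognition complex, CDC6 and CDT1 load the MCM ring onto origins, which is called licensing, and at the start of S phase CDC7 kinase and cyclin-dependent kinase turn that ring, with CDC45 and the GINS complex, into the active helicase. Primase and the replicative polymerases then copy both strands behind the sliding clamp PCNA, FEN1 and LIG1 join the Okazaki fragments, and ribonucleotide reductase supplies the deoxynucleotides. D cyclins and cyclin E with CDK2 release E2F transcription factors from the RB family of repressors, and E2F proteins are known to activate many of the genes listed here. Jaw mesenchyme at this stage holds many dividing cells. In a piece of whole tissue, fewer cycling cells and less RNA per cycling cell cannot be told apart.

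E2F sites are shown first because they are the known element shared by many of these promoters. RefSeq promoter sequences (GRCm38.p6) were held for 30 of the 38 genes, and the missing ones were Mcm4, Gins1, Gins2, Prim2, Pole, Ccnd1, Ccnd2 and Ccne2. The 250 bases before the start were searched on both strands for TTTCGCGC, TTTGGCGC, TTTCCCGC and TTTGCCGC, the letters of the classical E2F site. A match was found for 8 of 30 genes (26.7%), against 583 of 27025 genes in the whole table (2.16%). The genes were Mcm5, Mcm6, Mcm7, Orc1, Cdc6, Cdk2, Pola1 and Rfc3. Below are the 170 bases before the start of the 5 licensing genes among them, each written along the gene's own strand with the matches in capitals.
Orc1 (chr4:108579284-108579453, plus strand): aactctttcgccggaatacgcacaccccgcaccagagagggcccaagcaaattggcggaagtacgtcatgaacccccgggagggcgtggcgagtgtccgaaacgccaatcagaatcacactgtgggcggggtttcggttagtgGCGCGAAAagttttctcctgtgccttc
Cdc6 (chr11:98907981-98908150, plus strand): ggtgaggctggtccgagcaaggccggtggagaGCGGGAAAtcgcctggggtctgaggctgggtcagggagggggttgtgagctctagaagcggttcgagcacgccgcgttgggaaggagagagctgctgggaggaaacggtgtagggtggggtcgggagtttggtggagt
Mcm5 (chr8:75109339-75109508, plus strand): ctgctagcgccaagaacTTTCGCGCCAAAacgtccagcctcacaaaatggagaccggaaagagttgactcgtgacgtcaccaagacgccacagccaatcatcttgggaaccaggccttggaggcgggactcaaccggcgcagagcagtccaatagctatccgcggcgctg
Mcm6 (chr1:128359706-128359875, minus strand): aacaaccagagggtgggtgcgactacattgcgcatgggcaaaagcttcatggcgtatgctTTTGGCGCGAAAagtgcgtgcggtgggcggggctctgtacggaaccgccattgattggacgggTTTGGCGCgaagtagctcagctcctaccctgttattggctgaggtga
Mcm7 (chr5:138171884-138172053, minus strand): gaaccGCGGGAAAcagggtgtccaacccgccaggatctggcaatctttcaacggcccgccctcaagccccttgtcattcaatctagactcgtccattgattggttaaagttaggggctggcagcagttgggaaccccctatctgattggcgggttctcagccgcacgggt
The Orc1 match lies 27 to 20 bases before the start and those of Cdc6 and Mcm7 at 138 to 131 and 165 to 158. In Mcm5 and Mcm6 the first capitals hold a match on each strand that overlap, and Mcm6 has another match 47 to 40 bases before the start. A match is a description of the letters, and nothing here measured binding.

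Facts of the whole series that bear on these genes are few. Mandible identity genes such as Hand2 and Dlx5 separated the jaws as labelled on every array: the mean of 7 such genes, centred over the 24 arrays, was 0.45 to 0.94 (log2) in mandible groups and -0.99 to -0.38 in maxilla groups. The mesenchymal factor Prrx1 averaged 13.03 in control mandible and 12.54 in control maxilla. Tgfbr2, the targeted gene, had values of 12.16 to 12.56 in mutant pieces and 11.52 to 12.12 in control pieces. Which exon was deleted is not stated in the labels, so the probe set, which may lie outside it, checks nothing about them. The number of arrays limits the precision. There were 3 mutant maxilla arrays that stood apart in tissue content: distal replicate 1 and proximal replicates 1 and 2 had a skeletal muscle list mean of 1.21, 1.98 and 1.03, against -2.42 to -0.83 in the 6 control maxilla arrays. Their nasal epithelium list mean was -0.34, -1.33 and -0.98, against 0.50 to 2.66 in the same controls. In the mandible, mutant proximal replicate 1 stood apart, with an upper quartile over all probe sets of 9.16, against 9.30 to 9.41 on the other 23 arrays. Below, differences are mutant minus control on the log2 scale ± the standard error of the fit, group values are listed in the order of replicate 1, 2 and 3, and a gene passed when its adjusted p (limma, Benjamini-Hochberg over the 12811 genes) was under 0.05.

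In the proximal mandible, replication genes were lower in the mutant as a group. Of 37 genes, 18 fell and none rose, where 3.07% of all genes tested fell, 1.27% rose and 4.34% passed in either direction. The difference was below 0 for 37 of 37 genes, against 58.8% of all genes, and its median was -0.25, against -0.04 over all genes. The groups did not overlap for 29 of 37 genes, with the mutant lower, against 15.4% of all genes, and for 0 with the mutant higher (8.86% of all genes). An unadjusted p under 0.05 was found for 32 of 37 genes and for 19.5% of all genes. By role, the genes that fell were 8 of 10 licensing genes, 3 of 5 genes of helicase activation, 1 of 6 polymerase and primase genes, 3 of 7 genes of the clamp and of Okazaki fragment joining, 2 of 2 ribonucleotide reductase genes and 1 of 7 G1/S cyclins and regulators. The sizes were modest, between -0.56 and -0.17 for the genes that passed, which is a level 32.2% to 11.3% lower.

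**Figure D1:**
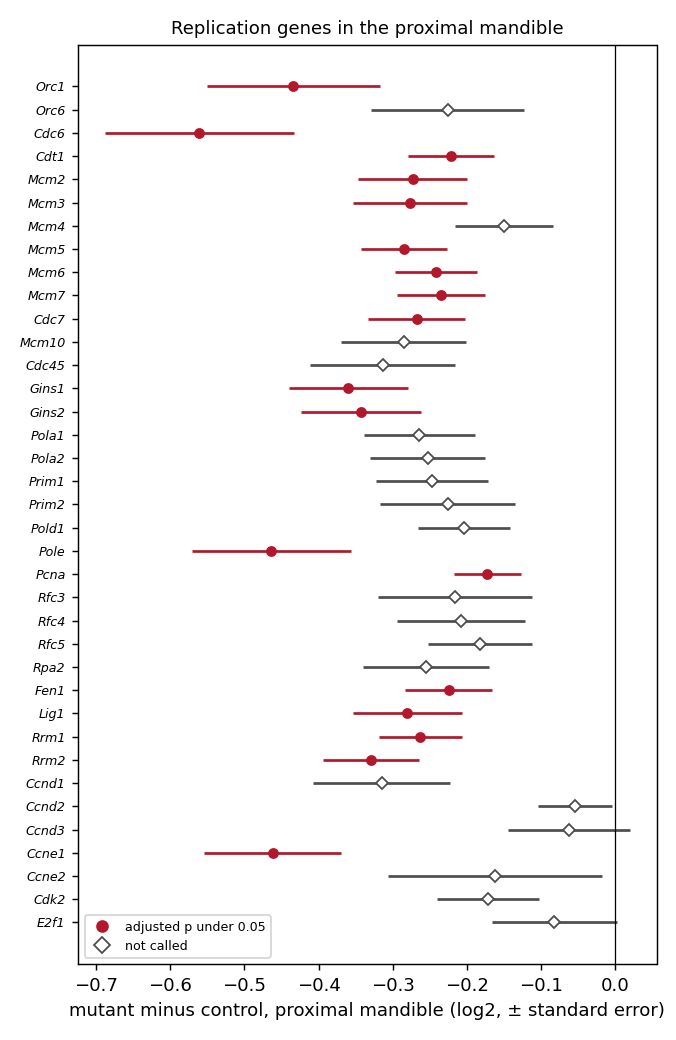
Mutant minus control difference of each of the 37 tested genes in the proximal mandible (log2 axis, points with bars of ± 1 standard error of the limma fit). Filled circles are the 18 genes with an adjusted p under 0.05 and open diamonds the others; every point lies below 0, from -0.56 for Cdc6 to -0.05 for Ccnd2.

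Cdc6, the loader of the MCM ring, had values of 8.90, 9.40 and 9.48 in mutant proximal mandible, against 9.66, 9.85 and 9.95 in control proximal mandible. The groups did not overlap, and the difference of -0.56 ± 0.13 was the largest fall among the 37 genes (adjusted p = 0.01962). Mutant replicate 1 lay furthest below the rest. Orc1, the largest subunit of the origin recognition complex, fell by 0.43 ± 0.12 (adjusted p = 0.04136), with values of 7.55, 7.91 and 7.68 in mutants and 8.14, 8.24 and 8.05 in controls. Its second, dimmer probe set did not show this, with a difference of 0.06. Cdt1, the partner of CDC6 in licensing, fell by 0.22 ± 0.058.

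Of the 6 MCM subunits, all but Mcm4 fell in the proximal mandible. Mcm5 had 12.15, 12.28 and 12.25 in mutants and 12.49, 12.57 and 12.48 in controls. That is a difference of -0.28 ± 0.058 (adjusted p = 0.01178), larger than the spread within either group. Mcm2, Mcm3, Mcm6 and Mcm7 had differences of -0.27, -0.28, -0.24 and -0.23 and each fell, and Mcm4 had a difference of -0.15 ± 0.066 (adjusted p = 0.2136). The second Mcm6 probe set, also bright, had a difference of -0.01. Of the 5 Mcm3 probe sets the dimmest had a difference of 0.23, and the others were lower in mutants. The fall of Mcm2 passed in 6 of 17 alternatives. Orc6, a small subunit of the origin complex, had a difference of -0.23 and an adjusted p of 0.2334.

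Among the genes that turn the loaded ring into a helicase, Gins1 had 9.54, 9.78 and 9.84 in mutants and 9.98, 10.15 and 10.11 in controls. It fell by 0.36 ± 0.081 (adjusted p = 0.01812), and Gins2, another GINS subunit, by 0.34 ± 0.081. Cdc7, the kinase that phosphorylates the MCM ring, had 9.92, 10.05 and 10.11 in mutants and 10.34, 10.23 and 10.31 in controls, a difference of -0.27 ± 0.066 (adjusted p = 0.02792). In each of these genes the highest mutant value lay below the lowest control value. Mcm10 and Cdc45, which join the helicase at firing, also had groups apart, with differences of -0.29 and -0.31, but did not pass (adjusted p = 0.06134 and 0.07407).

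Pole, the catalytic subunit of the leading strand polymerase epsilon, had 8.67, 9.01 and 9.18 in mutant proximal mandible, against 9.36, 9.50 and 9.40 in control proximal mandible. It fell by 0.46 ± 0.11 (adjusted p = 0.02092) and was the single gene of its role among the 18 that passed. Pola1, Pola2 and Pold1, polymerase alpha and delta subunits, and the primase genes Prim1 and Prim2 had differences between -0.26 and -0.20, each with the groups apart and an adjusted p between 0.05205 and 0.1709. Pcna itself, one of the brightest of these probe sets at 13.24, 13.36 and 13.38 in mutants and 13.49, 13.52 and 13.49 in controls, fell by 0.17 ± 0.045. Fen1, the flap nuclease of Okazaki fragments, fell by 0.22 ± 0.059 with values of 11.46, 11.28 and 11.30 in mutants and 11.46, 11.62 and 11.64 in controls, and here the groups met at their edge. Lig1, the ligase that seals the fragments, fell by 0.28 ± 0.074. The clamp loader genes Rfc3, Rfc4 and Rfc5 and the single strand binding gene Rpa2 had differences between -0.26 and -0.18 and did not pass.

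Rrm2, the small subunit of ribonucleotide reductase, had the smallest adjusted p of the 37 genes in this region. Its values were 12.02, 12.08 and 12.12 in mutants and 12.35, 12.47 and 12.39 in controls, a difference of -0.33 ± 0.065 (adjusted p = 0.009932). The large subunit Rrm1 had 11.79, 11.87 and 11.90 in mutants and 12.06, 12.14 and 12.16 in controls and fell by 0.26 ± 0.056 (adjusted p = 0.01386). Both subunits had groups that were apart and tight. Tyms, untested, was listed at 5.48, 6.13 and 6.15 in mutants and 6.42, 6.35 and 6.56 in controls, a dim range on this array.

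The G1/S group was mixed in the proximal mandible. Ccne1, the E cyclin that binds CDK2, had 10.94, 10.91 and 11.04 in mutants and 11.47, 11.31 and 11.49 in controls and fell by 0.46 ± 0.092 (adjusted p = 0.01037). Its probe set is of a type that can match other transcripts, as are those used for Rrm2, Mcm5, Fen1 and Pold1. The second probe sets, not of that type, had differences of -0.60 for Ccne1, -0.25 for Rrm2, -0.47 for Mcm5, -0.35 for Fen1 and -0.28 for Pold1 in the proximal mandible. The probe sets used for Mcm2, Mcm3, Mcm7 and Gins2 can also match several transcripts. The second ones of Mcm2, Mcm7 and Gins2 had differences of -0.37, -0.32 and -0.36 there. Ccnd1 (cyclin D1) had 11.85, 12.09 and 11.99 in mutants and 12.15, 12.44 and 12.30 in controls, a difference of -0.32 ± 0.092 with groups apart that missed the threshold (adjusted p = 0.06022). All 3 Ccnd1 probe sets were lower in mutants there, by differences of -0.32, -0.32 and -0.62. The other D cyclins, Ccnd2 with -0.054 ± 0.0495 and Ccnd3 with -0.062 ± 0.082, and E2f1 with -0.082 ± 0.084, had the differences nearest 0. Ccne2 and Cdk2 had differences of -0.16 and -0.17 and did not pass.

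The count of 18 depended on single arrays, though the direction did not. It was 3 without mutant replicate 1 (Ccne1, Fen1 and Rrm2), where 0.562% of all genes fell. It was 2 without control replicate 3 (0.624% of all genes), 5 without control replicate 2 (1.66%) and 11 without control replicate 1 (1.36%). With no filter on low values it was 11 (1.69%), and with the 6 arrays alone it was 0 (0.546%). With the replicate number as a block it was 27, and 7.63% of all genes fell in that fit. The median difference was -0.20 without mutant replicate 1, with all 37 genes still below 0. By role, the block gave 9 of 10 licensing genes, 5 of 5 of helicase activation, 5 of 6 polymerase and primase genes, 4 of 7 of the clamp and Okazaki fragments, 2 of 2 reductase genes and 2 of 7 G1/S genes. The genes that passed with the block but were not among the 18 were Orc6 (adjusted p = 0.003903), Mcm10 (0.008721), Cdc45 (0.02376), Pola1 (0.01921), Pold1 (0.02974), Prim1 (0.03743), Prim2 (0.0086), Rpa2 (0.02294) and Ccnd1 (0.03815). Of these, Ccnd1 and Pold1 also passed in some of the other alternatives, and the rest were not followed one by one there. Array weights gave 27 passing genes in this region, where 13.2% of all genes passed, so Ccnd1 and Pold1 were not alone. Beside this, 17 of 17 tested muscle markers had differences below 0, of which 1 fell, and the muscle list mean was 0.26 to 0.79 in mutant and 0.77 to 2.18 in control proximal mandible. Cartilage markers were above 0 for 16 of 17, with none passing and a median of 0.97, and the cartilage list mean was 0.79 to 1.35 in mutants and -1.18 to 0.69 in controls, with no overlap. The part of cartilage in the result was not tested. With the muscle and nasal list means as covariates 24 of 37 genes fell, and 7.07% of all genes did.

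**Figure D2:**
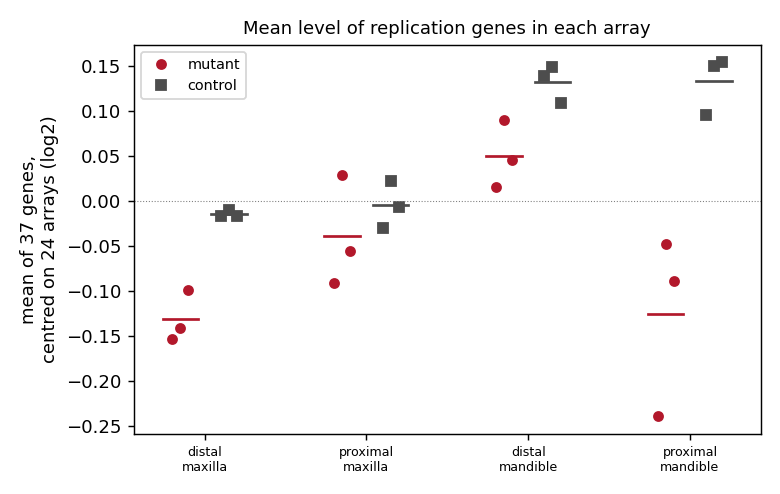
Mean of the 37 tested genes in each array, after centring each gene over the 24 arrays (log2 axis); points are arrays, mutant circles left of control squares in each region, and lines are group means. The mutant proximal mandible arrays lie at -0.24, -0.05 and -0.09, below control arrays at 0.10 to 0.15, and the proximal maxilla groups overlap.

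In the distal maxilla no gene of the list passed, where 0.195% of all genes did and 0.0859% fell. Most differences were below 0 all the same: 33 of 37 were below 0 (53.0% of all genes), with a median of -0.12, and 11 had an unadjusted p under 0.05 (9.19% of all genes). The groups did not overlap, with mutants lower, for 17 of 37 genes, against 5.83% of all genes, and with mutants higher for 0 (5.81% of all genes). The genes with the smallest p were Rrm2, Mcm2 and Fen1. Rrm2 had 11.91, 12.03 and 12.07 in mutants and 12.30, 12.34 and 12.16 in controls (-0.26 ± 0.065, adjusted p = 0.1248). Mcm2, an MCM subunit, had 11.48, 11.21 and 11.60 in mutants and 11.71, 11.68 and 11.69 in controls (-0.26 ± 0.073, adjusted p = 0.1889). Fen1 had 11.40, 11.34 and 11.45 in mutants and 11.54, 11.61 and 11.58 in controls (-0.18 ± 0.059, adjusted p = 0.3056). In all 3 genes every mutant array was below every control array, and the limma adjusted p missed the threshold. The muscle list mean was -2.68 to 1.21 in mutant and -2.42 to -1.44 in control distal maxilla. The neuron list mean did not overlap, at -0.12 to 0.30 in mutants and 0.38 to 1.56 in controls, all 10 nasal and all 17 cartilage markers tested had differences below 0 and 9 of 10 macrophage markers above 0, none of them passing, and the part of these tissues in the result was not tested. Without the 3 arrays that stood apart the median difference was -0.098.

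In the distal mandible no gene of the list passed either. The count was 0 of 37, against 0.742% of all genes, 8 had an unadjusted p under 0.05 (12.6% of all genes), and the median difference was -0.095. Differences below 0 were found for 32 of 37 genes, where 41.6% of all genes had one, and 10 of 37 had non-overlapping groups with the mutant lower (8.91% of all genes). Pole had 9.07, 9.27 and 9.27 in mutants and 9.42, 9.63 and 9.42 in controls (-0.29 ± 0.11, adjusted p = 0.2598). Ccnd2 (cyclin D2) had 13.20, 13.26 and 13.15 in mutants and 13.36, 13.26 and 13.37 in controls (-0.13 ± 0.0495, adjusted p = 0.288). Rrm1 had 12.04, 12.10 and 12.03 in mutants and 12.23, 12.17 and 12.18 in controls (-0.14 ± 0.056, adjusted p = 0.3033). All 3 genes had mutant arrays below every control array, though in Ccnd2 the nearest values of the groups both round to 13.26. All 17 muscle and all 17 cartilage markers tested had differences below 0 here, and the muscle list mean was -0.52 to 0.31 in mutants and 0.77 to 1.52 in controls; their part in the result was not tested. Of the 37 genes, Gins1 and Gins2 had differences of 0.0001 and -0.0009 in the distal mandible, beside their falls in the proximal mandible. The difference between the ends of the mandible was not tested.

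In the proximal maxilla genes of the list passed in both directions. Of 37 genes 4 fell and 3 rose, where 11.1% of all genes fell and 12.2% rose, so the share of the list that passed, 7 genes, was below the 23.3% of all genes that passed there. The median difference was -0.05, 26 of 37 were below 0, against 48.3% of all genes, and 8 had an unadjusted p under 0.05, against 34.8% of all genes. The genes that fell were Mcm2, Prim1, Rrm1 and Ccnd1, and those that rose were Cdc7, Ccnd3 and Cdk2. The groups were apart with the mutant lower for 7 genes (16.7% of all genes) and higher for 4 (19.5% of all genes).

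Ccnd3 (cyclin D3) had 12.44, 12.45 and 12.12 in mutant proximal maxilla, against 11.84, 11.80 and 11.92 in control proximal maxilla. It rose by 0.49 ± 0.082 (adjusted p = 0.0007374), a level 40.1% higher, and every mutant array was above every control array. Cdk2, the kinase of S phase entry, had 11.56, 11.57 and 11.37 in mutants and 11.19, 11.08 and 11.17 in controls, a rise of 0.35 ± 0.068 (adjusted p = 0.001713). Cdc7 had 10.33, 10.27 and 10.39 in mutants and 10.04, 10.01 and 10.07 in controls and rose by 0.29 ± 0.066 (adjusted p = 0.004381), with the value of mutant replicate 3, the array with the lowest muscle list mean of the 3, the highest. In Ccnd3 and Cdk2 that array was instead the lowest of the mutants, though still above the controls.

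Among the genes that fell in the proximal maxilla, Mcm2 had 11.46, 11.52 and 11.46 in mutants and 11.78, 11.78 and 11.66 in controls (-0.26 ± 0.073, adjusted p = 0.01592). The second Mcm2 probe set had a smaller difference there, -0.11. Rrm1 had 11.85, 11.99 and 11.93 in mutants and 12.11, 12.17 and 12.17 in controls (-0.23 ± 0.056, adjusted p = 0.00706). Ccnd1 had 12.18, 12.36 and 12.54 in mutants and 12.76, 12.56 and 12.63 in controls (-0.29 ± 0.092, adjusted p = 0.02906). Mcm2 and Rrm1 fell clear of the controls in both proximal regions, while in Ccnd1 mutant replicate 3 nearly reached them. Prim1, the catalytic primase subunit, fell by 0.22 ± 0.076 (adjusted p = 0.04631) with overlapping groups.

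Cell type markers moved with the proximal maxilla result. In mutants 11 of 17 muscle markers, 9 of 10 macrophage markers and 10 of 14 keratinocyte and oral epithelium markers rose, and 9 of 10 nasal markers, 11 of 15 neuron markers and 12 of 17 cartilage markers fell. The muscle list mean was -0.12 to 1.98 in mutant and -1.98 to -0.83 in control proximal maxilla, and the nasal list mean was -1.33 to 2.02 in mutants and 2.46 to 2.66 in controls. Leaving out the 3 arrays that stood apart leaves 1 mutant array in this region, whose spread is taken from the other groups. The differences were then 0.27 for Ccnd3, 0.22 for Cdk2, 0.35 for Cdc7, -0.28 for Mcm2, -0.22 for Rrm1, -0.11 for Ccnd1 and -0.047 for Prim1. With the muscle and nasal list means as covariates 0 of 37 genes passed, where 0.414% of all genes did. With proximal maxilla mutant replicate 1 left out 3 passed (10.6% of all genes), and with control replicate 1 left out 4 (15.2%).

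**Figure D3:**
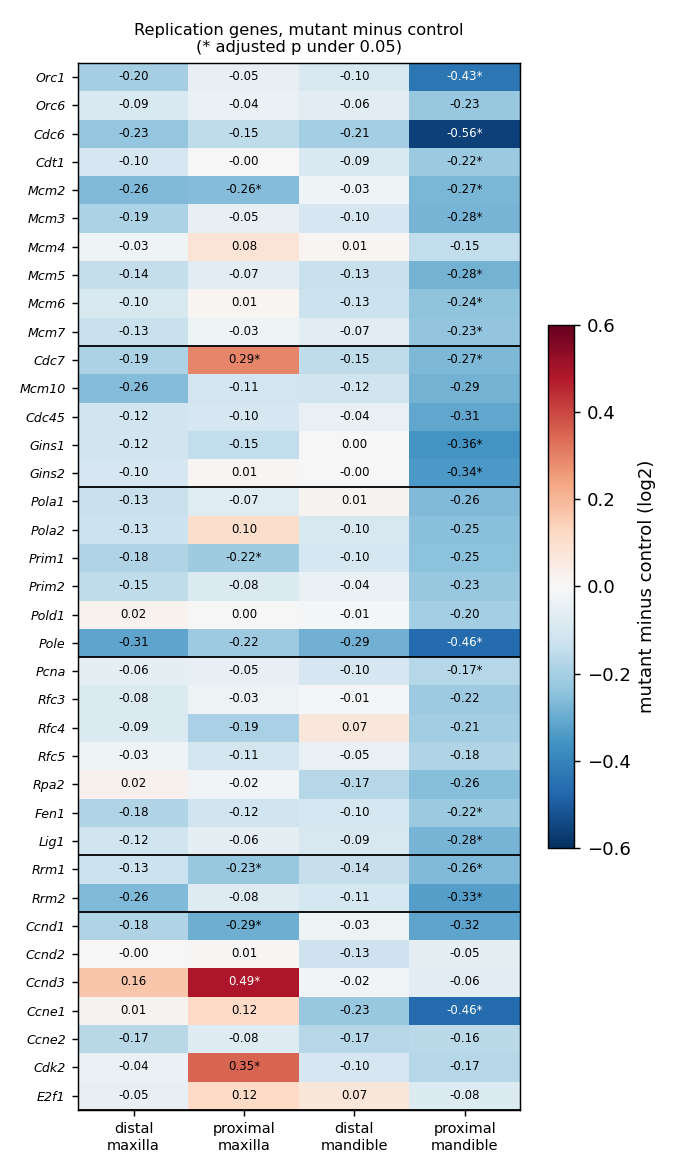
Heat map of the mutant minus control difference (log2, colour scale from -0.6 to 0.6, number in each cell) of the 37 tested genes in the 4 regions, with horizontal lines between the role groups and an asterisk where the adjusted p was under 0.05. The proximal mandible column is below 0 throughout, and the rises of Cdc7, Ccnd3 and Cdk2 stand in the proximal maxilla column.

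Set side by side over the 4 regions, 22 of 37 genes had a difference below 0 in all 4, where 13.0% of all genes tested did, and 10 had one in 3 regions (24.6% of all genes). A fall that passed was found for 20 genes in at least 1 region (13.8% of all genes) and for 2 of them, Mcm2 and Rrm1, in 2 regions (0.648% of all genes), while 15 genes passed in no region. Pole was the single gene of the list whose mutant arrays all lay below all control arrays in each of the 4 regions, which 0.39% of all genes showed. In the distal maxilla Pole had 8.99, 9.11 and 9.18 in mutants, against 9.42, 9.51 and 9.30 in controls. In the proximal maxilla it had 9.09, 9.11 and 9.11 in mutants, against 9.43, 9.35 and 9.18 in controls. Such a separation in 3 regions was found for 8 genes, Cdc6, Cdt1, Mcm2, Prim1, Fen1, Rrm1, Rrm2 and Ccnd1, and for 1.87% of all genes.

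When the 4 arrays sharing a genotype and a number were averaged and the 3 mutant averages set against 3 control averages, no gene of the list passed, where 1.09% of all genes did and 0.703% rose. The median difference was -0.12, with 34 of 37 genes below 0 (51.4% of all genes), and 14 had an unadjusted p under 0.05, against 16.7% of all genes. The lowest averages were -0.32 ± 0.081 for Pole (adjusted p = 0.1251) and -0.29 ± 0.097 for Cdc6 (adjusted p = 0.2148), and Mcm2 had the smallest adjusted p, 0.1188, at -0.21 ± 0.050. The highest were 0.14 ± 0.064 for Ccnd3 and 0.017 ± 0.053 for E2f1, the E2F family activator, whose values did not separate the groups in any region. E2f1 had, for instance, 9.12, 9.26 and 9.25 in mutant proximal mandible and 9.25, 9.37 and 9.25 in control proximal mandible. Without the proximal mandible the median average was -0.071, and without the proximal maxilla it was -0.159.

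**Figure D4:**
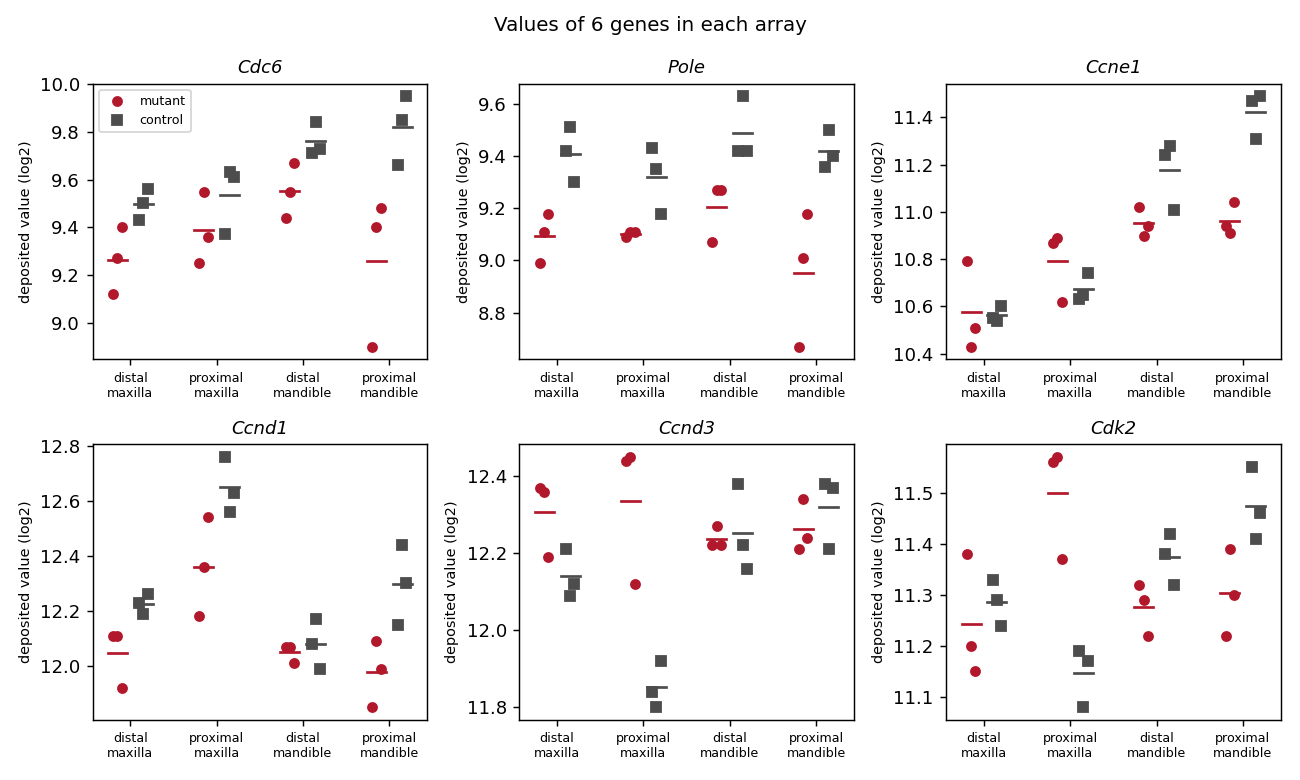
Deposited log2 value of 6 genes in every array, with mutant circles left of control squares in each region and lines for group means; the axes differ between panels. Pole is lower in mutants in all 4 regions, Ccne1 is lower in the mutant proximal mandible, and Ccnd3 and Cdk2 are higher in the mutant proximal maxilla.

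Whether the mutant difference itself differed between jaws was tested as an interaction, the difference in the mandible minus that in the maxilla. It passed for 4 of 37 genes, all with the lower value in the mandible, where 4.32% of all genes passed in that direction, 3.93% in the other and 8.25% in either. It was below 0 for 33 of 37 genes and for 52.8% of all genes. These were Ccne1 (-0.41 ± 0.092, adjusted p = 0.01717), Ccnd3 (-0.36 ± 0.082, adjusted p = 0.01717), Cdk2 (-0.29 ± 0.068, adjusted p = 0.01926) and Cdc7 (-0.26 ± 0.066, adjusted p = 0.02506). For Ccne1 the regional differences were -0.23 and -0.46 in distal and proximal mandible and 0.014 and 0.12 in distal and proximal maxilla. For Ccnd3, Cdk2 and Cdc7 it was the rise in the proximal maxilla that set the jaws apart. Without the 3 maxilla arrays that stood apart, or with the muscle and nasal lists as covariates, 0 genes passed, at -0.27 and -0.14 for Ccne1, -0.24 and -0.19 for Ccnd3, -0.19 and -0.13 for Cdk2 and -0.28 and -0.23 for Cdc7.

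Between ends, distal minus proximal, the mutant difference passed for 0 of 37 genes in limma and for 0.0% of all genes, and 5 genes had an unadjusted p under 0.05, against 7.67% of all genes. It was below 0 for 7 of 37 genes, against 40.8% of all genes. The 3 smallest p-values belonged to Cdc7 (-0.18 ± 0.066, adjusted p = 0.582), Gins1 (0.20 ± 0.081, adjusted p = 0.6106) and Cdk2 (-0.16 ± 0.068, adjusted p = 0.6243). Gins1 had 10.35, 10.27 and 10.28 in mutant distal mandible and 10.22, 10.27 and 10.40 in control distal mandible. This test pools both jaws, and distal against proximal within the mandible alone was not tested.

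In control embryos the same genes differed between the jaws. Of 37 genes 17 were higher and 1 was lower in mandible than in maxilla, where 16.9% of all genes were higher, 19.4% lower and 36.2% either. An unadjusted p under 0.05 was found for 22 genes (45.0% of all genes), and 2 differences were below 0 (48.9% of all genes). The groups of 6 arrays did not overlap for 9 genes with the mandible higher (7.22% of all genes) and for 0 with it lower (8.65% of all genes). Ccne1 had the largest difference, 0.68 ± 0.065 (adjusted p = 2.053e-06), with 11.24, 11.28 and 11.01 in distal and 11.47, 11.31 and 11.49 in proximal control mandible, against 10.55, 10.54 and 10.60 in distal and 10.63, 10.65 and 10.74 in proximal control maxilla. All 6 control mandible arrays were above all 6 control maxilla arrays. Pold1, the catalytic subunit of polymerase delta, had 10.39, 10.35 and 10.34 in distal and 10.29, 10.16 and 10.28 in proximal control mandible, against 10.03, 10.04 and 10.09 in distal and 10.04, 9.96 and 10.05 in proximal control maxilla (0.27 ± 0.044, adjusted p = 0.0001346). Ccnd3 was higher by 0.29 ± 0.058 (adjusted p = 0.0007142), and its control mandible values of 12.16 to 12.38 met the control maxilla values of 11.80 to 12.21. Ccnd1 went the other way, with 12.08, 12.17 and 11.99 in distal and 12.15, 12.44 and 12.30 in proximal control mandible, against 12.23, 12.19 and 12.26 in distal and 12.76, 12.56 and 12.63 in proximal control maxilla (-0.25 ± 0.065, adjusted p = 0.005247). All 17 tested muscle markers were higher and all 10 nasal markers lower in control mandible, so jaw and these tissues cannot be told apart, and with both list means as covariates 0 genes passed, where 2.12% of all genes did. The Ccne1 difference was then 0.33 ± 0.097 (adjusted p = 0.08445), while those of Cdc6 (0.415 ± 0.191), Cdc45 (0.288 ± 0.135) and Ccne2 (0.365 ± 0.223) were no smaller than without the covariates and had larger standard errors. The fit took the 6 control arrays of each jaw as independent. Distal and proximal pieces of the same number may come from the same embryo, which the labels do not state. Their deviations from group means correlated by 0.459, 0.537 and 0.528 in control mandible and by 0.497, 0.181 and 0.11 in control maxilla. The independent units per jaw may therefore be fewer than 6, here and in the comparison of ends below. These control arrays also enter the mutant comparisons above.

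Between the ends of control jaws 1 gene was higher and 1 lower at the distal end, against 5.0% and 3.5% of all genes. Ccnd1 was lower distally, with a difference of -0.32 ± 0.065 (adjusted p = 0.005374), by the values just given. Cdc7 was higher distally by 0.16 ± 0.046 (adjusted p = 0.03823), with 10.41, 10.41 and 10.43 in distal mandible and 10.16, 10.31 and 10.24 in distal maxilla, against 10.34, 10.23 and 10.31 in proximal mandible and 10.04, 10.01 and 10.07 in proximal maxilla. The distal values were higher within each jaw, and Cdc7 was lost when any of 10 of the 12 control arrays was left out.

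Other genes of replication and of the cell cycle were read from the same fit. Of 38 further replication genes tested, 7 fell and 0 rose in the proximal mandible, where 3.07% of all genes fell and 1.27% rose. All 38 had differences below 0 there (58.8% of all genes), with a median of -0.19. Dna2, a nuclease of Okazaki fragment ends, fell by 0.47 ± 0.071 (adjusted p = 0.001587), Gmnn, which encodes the licensing inhibitor geminin, by 0.36 ± 0.062, Dnmt1, the maintenance DNA methyltransferase, by 0.30 ± 0.056 and Dbf4, the activator of CDC7, by 0.40 ± 0.076. In the proximal maxilla, where 11.1% of all genes fell, 6 of the 38 did, among them Dut, which clears dUTP, by 0.40 ± 0.074 and Dck, the deoxycytidine kinase, by 0.385 ± 0.088. In the distal maxilla 34 of the 38 had differences below 0 (53.0% of all genes), with a median of -0.11. In the distal mandible only 21 of the 38 did (41.6% of all genes), with a median of -0.01. There the list of 37 genes had 32 below 0.

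Mitosis genes were lower in the same pieces. In the proximal mandible 18 of 25 fell, against 3.07% of all genes, with a median difference of -0.34. Among them were Birc5 (survivin) by 0.35 ± 0.062, Cenpf, a kinetochore gene, by 0.50 ± 0.092 and Kif23, a kinesin of cytokinesis, by 0.41 ± 0.077. In the proximal maxilla 8 of 25 fell, beside the same 11.1% of all genes. All 25 had differences below 0 in each of the 4 regions, which 13.0% of all genes had. None passed in the distal regions. An unadjusted p under 0.05 was found for 16 of 25 in the distal maxilla, against 9.19% of all genes. In the distal mandible it was found for 3 of 25, near the 12.6% of all genes there. Whether the mitosis and replication lists differ was not tested.

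Of 12 tested genes of the E2F and RB families, E2f8, E2f2 and E2f6 fell in the proximal mandible (3.07% of all genes), E2f8 by 0.445 ± 0.072 (adjusted p = 0.002825). E2f7 fell by 0.40 ± 0.12 in the proximal maxilla, where 11.1% of all genes fell. E2f7 and E2f8 encode repressors that are themselves expressed in S phase. Of 6 tested CDK inhibitor genes none passed in the proximal mandible or in the distal regions. In the proximal maxilla Cdkn2b (p15) rose by 0.93 ± 0.18 (adjusted p = 0.00156), Cdkn1c (p57) rose by 0.36 ± 0.089 and Cdkn1b (p27) fell by 0.32 ± 0.091. There 12.2% of all genes rose and 11.1% fell, and 0.414% passed with the muscle and nasal list means as covariates. The part of tissue content in these changes was not tested. Of 6 tested partners of D cyclins and other G1 genes, Ccna2, the S and G2 phase cyclin A2, fell in the proximal mandible by 0.31 ± 0.064 (adjusted p = 0.01208), where 3.07% of all genes fell.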

How the data were processed

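Per the labels' protocols, total RNA was extracted with RNeasy kits, labelled with biotin and hybridised to Affymetrix mouse genome arrays. For every probe set the deposited table gives a log2 value in each of the 24 arrays. The submitters' processing notes name RMA and Partek 6.6, and the labels do not state their settings. The log2 scale of the deposited values was taken from their range, 3.44 to 14.83, with array medians of 6.929 to 6.999. RMA forces similar distributions on all arrays and compresses dim values, so changes of dim genes are understated. Probe sets were named through the platform annotation, checked against RefSeq (GRCm38.p6): of 45101 probe sets 34958 had 1 symbol, 932 several and 9211 none here. Columns that belong to no sample numbered 0.

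A gene was tested when it exceeded the array median in at least 3 of 24 arrays. Groups were compared two-sided with lmFit and eBayes of limma 3.58.1, run in R 4.3.3, with all 24 arrays in 8 groups in 1 fit, and 6 averages for the mean over regions, adjusted by Benjamini-Hochberg over 12811 genes. The fit was tested on simulated data with known changes. The members and lists were chosen with earlier results of these data known, and the genes and markers have no test of their own as lists. Values in every array are given for the 3 genes with the smallest adjusted p per comparison (unadjusted p where none passed), the extremes of the regional average and the D cyclins, and a few others were added after their values were seen. Alternatives were other filters, the mean of a gene's probe sets, array weights, another variance prior, a second quantile normalization, blocks, covariates and left-out arrays.

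Deviations from group means of mutant and control arrays with the same number correlated by 0.299, 0.323 and 0.297 in the proximal mandible, 0.151 to 0.506 in the distal mandible and 0.184 to 0.594 in the regional average, so the numbers were taken to pair samples there. In the maxilla at least 1 of the 3 was under 0.1 (0.0951, 0.35 and 0.197 distally, 0.0355, 0.266 and -0.0127 proximally), so mutant and control arrays were not taken as paired there. Distal and proximal control maxilla pieces of one number correlated by 0.497, 0.181 and 0.11, and mutant maxilla pieces by 0.695, -0.087 and 0.633. In the mandible these correlations were 0.459, 0.537 and 0.528 in controls and 0.349, 0.372 and 0.436 in mutants.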

Additional observations from a re-analysis of the deposited data

Results flagged for a closer look

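For 4 of 37 genes the mutant minus control difference was not the same in the 2 jaws (limma interaction test, adjusted p under 0.05). That is what brings them here. Of all genes tested, 8.25% passed the same test in either direction and 4.32% with the lower value in the mandible. Whether the list passed more often than all genes was not tested. The difference in the mandible minus that in the maxilla was -0.26 for Cdc7, -0.36 for Ccnd3, -0.41 for Ccne1 and -0.29 for Cdk2 (log2). Ccne1 fell in the mutant proximal mandible and had differences of -0.23 in the distal mandible, which did not pass, and of 0.014 and 0.12 in distal and proximal maxilla, while Ccnd3, Cdk2 and Cdc7 rose in the mutant proximal maxilla. All 4 interactions missed the threshold without the 3 mutant maxilla arrays of high muscle content, at -0.28 for Cdc7 (adjusted p = 0.1153), which was no smaller than with them, -0.24 for Ccnd3 (0.192), -0.27 for Ccne1 (0.1495) and -0.19 for Cdk2 (0.216).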

How the results depend on the processing

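Most values kept their direction and their side of the threshold. With array weights the genes passing numbered 3 in the distal maxilla, 11 in the proximal maxilla, 2 in the distal mandible, 27 in the proximal mandible, 1 in the regional average, 10 for the difference between jaws, 3 for the difference between ends and 5 for control distal minus proximal. Calls over all genes rose too, to 4.4% in the distal maxilla, 48.4% in the proximal maxilla, 7.68% in the distal mandible, 13.2% in the proximal mandible, 5.27% in the average, 29.3% between jaws, 8.9% between ends and 19.0% for control distal minus proximal. With the muscle and nasal lists as covariates the genes passing numbered 0 in the proximal maxilla, where 0.414% of all genes passed. They numbered 0 between the jaws (0.367%) and for control mandible minus maxilla (2.12%), where Cdk2 turned to -0.026. Without the 3 mutant maxilla arrays, which leaves 1 mutant array in the proximal maxilla, only the differences are given above. With only the 6 arrays compared 0 passed in both proximal regions, where fewer arrays estimate the spread. Of all genes 5.94% passed then in the proximal maxilla and 1.26% in the proximal mandible. No filter gave 11 in the proximal mandible (2.53% of all genes). It gave 1 for control distal minus proximal (5.86%), as did the mean of all probe sets (8.21%). A random block of pieces sharing genotype and number gave 4 in the regional average. The cause of the other shifts was not tested. The median difference in the distal maxilla was -0.066 with the mean of probe sets, -0.10 after a second quantile normalization and -0.098 without the 3 arrays. With the replicate number as a block, the proximal mandible count was 27, and no gene passed in the distal mandible or the average. Leaving out 1 array, or 1 number for the average, gave 2 to 21 genes in the proximal mandible, 3 to 8 in the proximal maxilla, 3 to 5 between the jaws, 13 to 19 for control mandible minus maxilla, 1 to 2 for control distal minus proximal and 0 elsewhere, with medians of -0.278 to -0.196 in the proximal mandible, -0.131 to -0.098 in the distal maxilla, -0.106 to -0.069 in the distal mandible, -0.086 to -0.029 in the proximal maxilla and -0.151 to -0.089 in the average. Leaving each region out of the average was chosen after seeing the data, and its medians stand beside that result.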

Other observations

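The other probe sets of the same genes can be set beside those used above. There were 37 further probe sets of 25 genes with a mean above 7 (log2), and 32 of them were below 0 in the proximal mandible, with a median of -0.25, against 29 in the distal mandible, 28 in the distal maxilla and 23 in the proximal maxilla. The further Cdc7 probe set behaved like the first, with 0.22 in the proximal maxilla and -0.26 in the proximal mandible. Ccnd2 had 7 probe sets, whose proximal mandible differences ran from -0.11 to 0.05. The second Ccnd3 probe set, much dimmer, had a difference of 0.11 in the proximal maxilla.

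How far the genes moved together within groups was described by the correlation of each gene's deviations from its group means with the mean deviation of the others. Over 24 arrays the median was 0.51, from -0.18 for Fen1 to 0.84 for Mcm4. Without mutant proximal mandible replicate 1 the median was 0.34, and Fen1 had 0.38. Arrays share their processing, so this describes these arrays only.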
